A study of Mus musculus with 6 samples.

Results

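The stretch described here runs from the Calpha gene to the 3′ part of the D cluster of the mouse immunoglobulin heavy chain locus (Igh), and the values are the contacts that its fragments make with each other. Chromosome conformation capture carbon copy (5C) joins DNA ends that lie close together in fixed nuclei and counts each junction with a forward primer on one HindIII fragment and a reverse primer on another. All forward-reverse primer pairs with both fragment midpoints between 114486613 and 114691293 of chromosome 12 (mm9) were taken. They number 361 of the 12656 forward-reverse pairs of the Igh primer set, and they come from 19 forward and 19 reverse fragments that cover 152.6 of the 204.7 kb. Of these pairs, 156 join constant genes to each other, 163 join a constant gene fragment to a fragment between Cmu and D, and 42 lie within the Cmu to D side.

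The 3 cell types were mouse embryonic fibroblasts (MEF) from culture, Rag2 deficient bone marrow pro-B cells expanded in IL7 for 4 days, and CD43- resting B cells taken from the spleen with magnetic beads, each with 2 libraries of separate biological replicates. MEF carry the unrearranged locus of a cell that is not a lymphocyte. Rag2 is part of the recombinase, so the pro-B cells also keep an unrearranged locus, whereas splenic B cells carry joined V, D and J segments on at least one of their alleles. Strain and age were not given in the labels used here, and 5C reads no expression, so neither cell type markers nor the loss of Rag2 could be checked in these files.

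As background, the constant genes of Igh lie in a row that follows the order in which class switching can use them, with Cmu and Cdelta next to the J segments and Calpha at the far end. The intronic enhancer Emu sits between the J segments and the switch region of Cmu, and the 3′ regulatory region, a cluster of enhancers needed for class switching, lies just beyond Calpha. In resting B cells Emu and the 3′ regulatory region are known to come together, and class switching joins the switch region of Cmu to that of a downstream gene across this loop. The D segments lie on the other side of Emu and J and take part in V(D)J joining.

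The fragments were placed in 9 zones by the approximate textbook positions of the genes. The Calpha zone (114486613 to 114502799) held 5 fragments, named REV 33, FOR 34, REV 35, FOR 36 and REV 37 after their primers. It lies on the side of the 3′ regulatory region, whose own extent was not mapped here. The Cepsilon and Cgamma2a/2c zone (114502800 to 114531105) held 4 fragments, the Cgamma2b zone 3, the Cgamma1 zone 2 and the Cgamma3 zone 3. The Cdelta zone (114614961 to 114656272), which takes in the stretch 3′ of Cdelta, held 8 fragments. The Cmu zone (114656273 to 114664823) held 5 and includes the Cmu switch region. The enhancer and J zone (114664824 to 114670119) held 3, of which REV 81 (114664824 to 114667095) carries the intronic enhancer. The D zone (114670120 to 114691293) held 5 fragments and covers only the 3′ part of the D cluster.

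Each library held between 20580457 and 24191175 valid junction reads, and 91.3 to 93.4% of them were between Igh primers. The 361 pairs took 19.3% and 20.0% of the Igh reads in pro-B, 23.8% and 25.2% in MEF, against 35.2% and 34.8% in resting B. Resting B was thus above both other cell types in both libraries, but an exact permutation test of 2 against 2 libraries cannot go below p = 0.333. All 361 pairs passed the filter of at least 10 reads in at least 2 libraries. Pairs without a read numbered 11 in pro-B replicate 2, 1 in resting B replicate 2 and 0 elsewhere, and a count of 0 allows up to 3 reads. The replicates correlated at r = 0.975 in MEF and 0.987 in resting B over these pairs, but at 0.872 in pro-B, where replicate 2 stood apart and replicate 1 correlated better with MEF replicate 1 (r = 0.925). Results with pro-B are therefore given with and without that library where it changed them.

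Neighbouring fragments dominated the reads. The 27 pairs of fragments that touch each other held 79.8 to 85.4% of the reads of the stretch. The most frequent pair in MEF and resting B was FOR 82 with REV 81, the enhancer and the fragment on its J side, with 251013 and 210785 reads in pro-B. It had 739244 and 739556 reads in MEF, and resting B stood highest with 1510088 and 1644784. FOR 80 with REV 81, the enhancer and the fragment on its Cmu side, came second in both with 152631 and 131311 reads in pro-B, 488474 and 426788 in MEF, against 627084 and 703264 in resting B. Both neighbour pairs of the enhancer were lowest in pro-B in both libraries. In pro-B the leading pairs were FOR 34 with REV 33 in the Calpha zone (559274 and 583289 reads) and FOR 86 with REV 85 in the D zone (513473 and 591910). FOR 86 with REV 85 had 475252 and 432283 reads in MEF and 279113 and 247958 in resting B. The other leading pairs were FOR 43 with REV 44 of Cgamma2b and FOR 84 with REV 85 of D in pro-B, FOR 71 with REV 70 of Cdelta in MEF and resting B, and FOR 82 with REV 83 of J in resting B, all of them touching fragments.

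The decay of contacts with distance differed between the stretch and the rest of the locus. Pairs of the stretch over 100 kb apart had a median of 42 and 44.9 RPM (cis reads scaled to an equal TMM-corrected depth) in resting B, but 17.5 and 16.4 in MEF, with pro-B at 16.1 and 20.2. Igh pairs elsewhere of over 100 and up to 200 kb had medians of 7.95 to 9.18 in all 6 libraries. From 25 to 50 kb the stretch had medians of 34.6 and 32.1 in resting B, 37.2 and 34.9 in MEF, with pro-B at 16.0 and 24.3. Pair by pair, the median log2 fold of resting B over MEF was 0.09 under 25 kb, 0.54 from 25 to 50 kb, 1.08 from 50 to 100 kb and 1.68 over 100 kb, so the typical pair was higher in resting B at 25 to 50 kb although the median RPM were not. Pairs within the gene desert on chromosome 5, the control region of the primer set, had a median of 5.35 in the same unit under 25 kb in pro-B replicate 2 and of at most 0.485 in the other libraries.

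**Figure D1:**
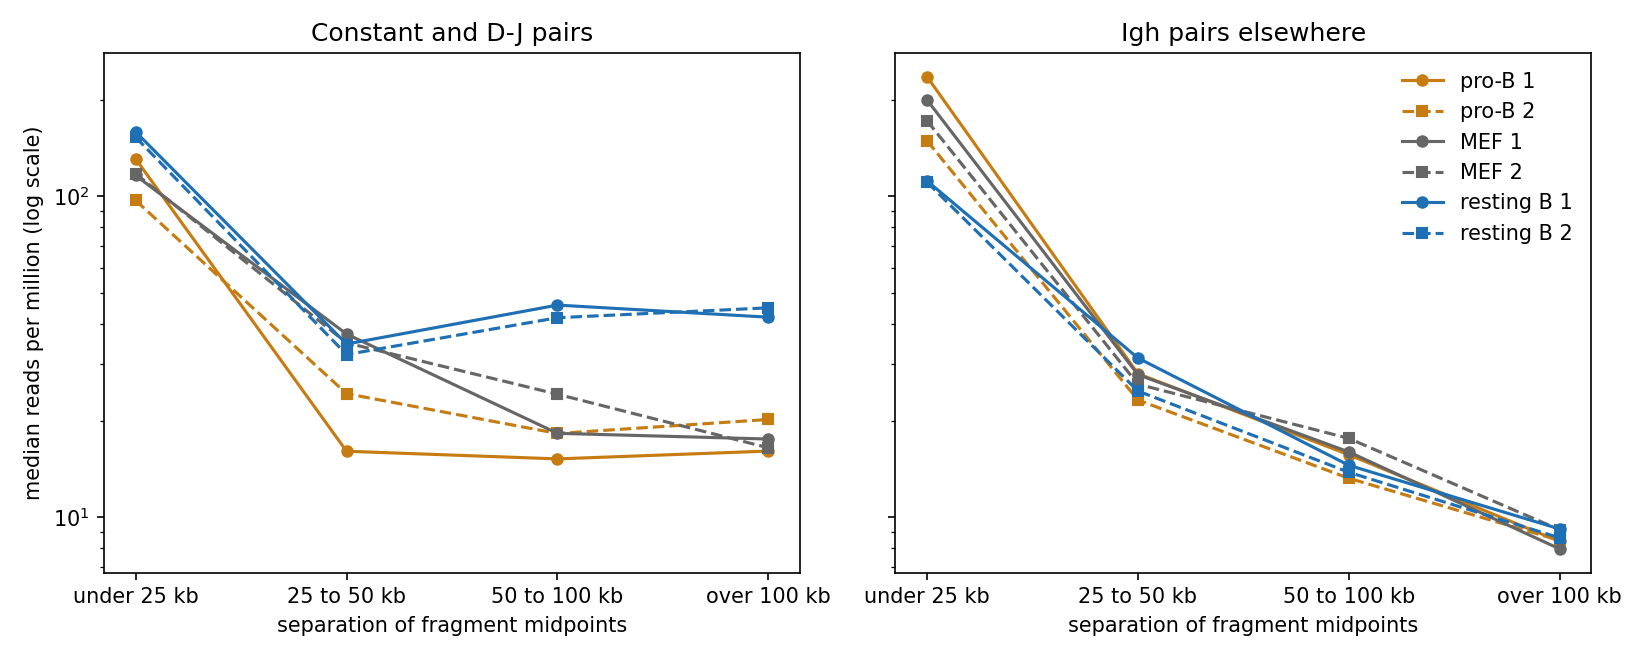
Median RPM (reads per unit depth) (log axis) of primer pairs in 4 bins of separation, for the 361 pairs of the stretch (left) and Igh pairs elsewhere up to 200 kb apart (right), 1 line per library. Over 100 kb the 2 resting B libraries lie at 42 and 44.9 in the left panel and the other 4 between 16.1 and 20.2, while all 6 lie between 7.95 and 9.18 in the right panel.

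In resting B compared with MEF, contacts between the Calpha zone and the Cdelta, Cmu and enhancer side of the stretch were higher. edgeR's quasi-likelihood test with Benjamini-Hochberg adjustment over all 11940 tested Igh pairs called 13 of the 361 pairs higher and 0 lower, which is 3.60% of the pairs beside a background of 0.369% higher and 0.385% lower over all Igh pairs. At an unadjusted p under 0.05 there were 138 higher and 43 lower, beside 8.74% and 12.2% of all Igh pairs. The median log2 fold of the stretch was 0.72, beside -0.02 over all Igh pairs and -0.54 over the 1545 other Igh pairs up to 200 kb apart, of which 19 were called higher and 32 lower. Of the 13 called pairs, 11 were over 100 kb apart, as 130 of the 361 pairs are. All 13 held a Calpha zone fragment, as 89 of the 361 pairs do. Their other ends lay in Cdelta in 6 pairs, in Cmu in 3, in the enhancer and J zone in 2, and in Cgamma1 and Cgamma2b in 1 each. Calpha has 20, 13, 7, 5 and 8 pairs with these zones, in that order. Leaving out any MEF or any resting B library leaves 1 library in that group. The calls were then lost over the whole locus as in the stretch. The median log2 fold of the stretch was 0.87 without MEF replicate 1 and 0.77 without MEF replicate 2. It was 0.76 without resting B replicate 1 and also without replicate 2. Without pro-B replicate 1 or 2 it was 0.72, and more pairs passed in the stretch and over the locus. The count thus depends on which libraries enter the fit.

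The pairs with the smallest p joined Calpha to Cmu and to the enhancer over 165.7 to 175.6 kb. FOR 78 of Cmu with REV 35 had 204 and 347 reads in MEF, 233 and 289 in pro-B, and 4632 and 4357 in resting B. Its log2 fold of resting B over MEF was 4.01 ± 0.38 (SE, edgeR's adjusted p = 0.0383). FOR 80, which touches the enhancer fragment on its Cmu side, had 318 and 371 reads with REV 33 in MEF, 281 and 641 in pro-B, and 6050 and 6510 in resting B (log2 fold 4.11 ± 0.47, edgeR's adjusted p = 0.0383). In each of these pairs the 4 MEF and pro-B libraries lay together and both resting B libraries lay far above them.

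The enhancer fragment REV 81 with FOR 34 of the Calpha zone had 378 and 593 reads in MEF, 421 and 935 in pro-B, and 6268 and 6739 in resting B. The log2 fold of resting B over MEF was 3.72 ± 0.43 (edgeR's adjusted p = 0.0383). REV 81 with FOR 36, also of the Calpha zone, had 291 and 395 reads in MEF, 155 and 264 in pro-B, and 3021 and 2099 in resting B (2.83 ± 0.42, edgeR's adjusted p = 0.044). FOR 80 with REV 35 had a log2 fold of 4.28 ± 0.61 and edgeR's adjusted p of 0.044. Resting B did not overlap with MEF or pro-B in any of these pairs, and 33.9% of all Igh pairs also lay higher in both resting B libraries than in both MEF libraries.

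Calpha with Cdelta supplied the remaining pairs named here. FOR 71, a fragment of 306 bp in the Cdelta zone, had 291 and 342 reads with REV 33 in MEF, 298 and 600 in pro-B, and 4752 and 3532 in resting B (log2 fold 3.62 ± 0.44, edgeR's adjusted p = 0.0389). The same fragment with REV 37 gave 3.53 ± 0.52 (edgeR's adjusted p = 0.044). FOR 34 with REV 75 gave 2.97 ± 0.39, FOR 34 with REV 70 gave 3.00 ± 0.46, and FOR 68 with REV 35 gave 2.39 ± 0.37, with edgeR's adjusted p of 0.044 to 0.0467. All of the 20 pairs of Calpha with Cdelta had a fold above 0, with a median of 2.62. Each of the 10 pairs named here kept its direction in all 16 alternative settings and its call in 9 or 10 of them.

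**Figure D2:**
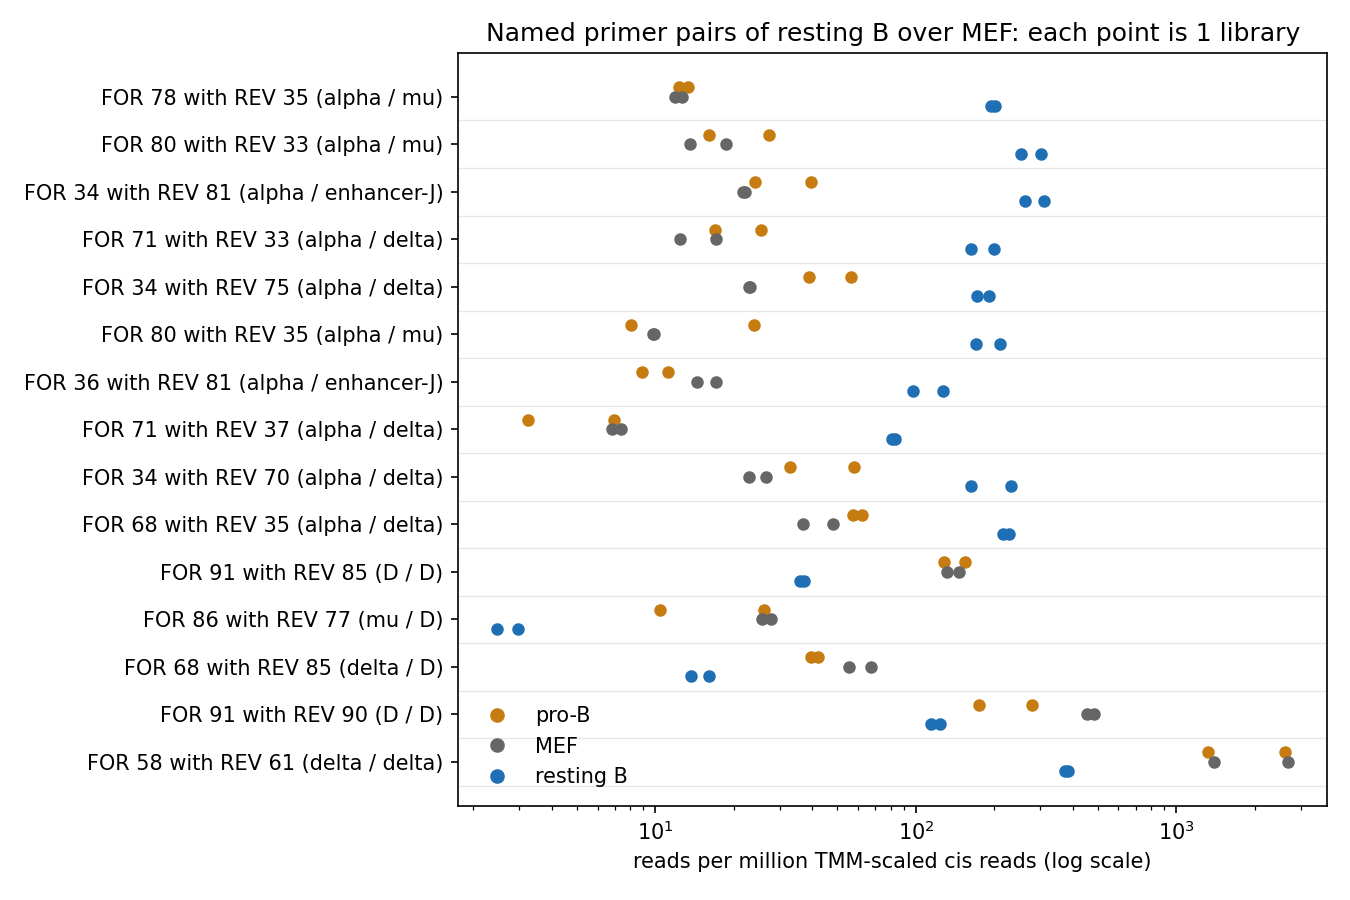
RPM after TMM scaling (log axis) of the 10 pairs with the smallest p among those called higher in resting B over MEF, and of the 5 lowest by the same order, which did not pass the threshold, 1 point per library coloured by cell type. In the upper 10 rows both resting B points lie to the right of all 4 MEF and pro-B points, and in the lower 5 rows they lie to the left.

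No pair was called lower. The 5 pairs nearest to the threshold on that side were FOR 91 with REV 85 and FOR 91 with REV 90 within D, FOR 86 of D with REV 77 of Cmu, FOR 68 of Cdelta with REV 85 of D, and FOR 58 with REV 61 in the Cdelta zone. FOR 86 with REV 77 had 474 and 702 reads in MEF, 182 and 615 in pro-B, and 59 and 64 in resting B (log2 fold -3.29 ± 0.63, edgeR's adjusted p = 0.0597). FOR 91 with REV 85 had 2508 and 3600 reads in MEF, 2705 and 3011 in pro-B, and 890 and 773 in resting B (-1.93 ± 0.35, edgeR's adjusted p = 0.058). Resting B lay below the other 4 libraries in each of the 5, as both resting B libraries did below both MEF libraries in 35.9% of all Igh pairs. Of these 5 pairs, 4 have an end in the D zone, as 89 of the 361 pairs do.

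Along the stretch, the fold of the Calpha contacts changed with the position of the partner. The median log2 fold of resting B over MEF was 1.04 with Cepsilon and Cgamma2a/2c, 1.48 with Cgamma2b, 1.88 with Cgamma1, 1.66 with Cgamma3, 2.62 with Cdelta, 3.29 with Cmu and 2.02 with the enhancer and J zone. With D it was -0.18. The highest median of a single partner was 4.11, for FOR 80. It was 3.27 for the enhancer fragment REV 81, 2.02 for FOR 82 on its J side, 0.30 for REV 83 of J, and -0.37 for FOR 84, the first D fragment. Forward partners pair with the 3 reverse Calpha fragments and reverse partners with the 2 forward ones. Position and primer set are therefore not separated in these medians of 2 or 3 pairs. In the Cmu zone REV 77 and REV 79 had 2.32 and 2.25, beside 3.25 for FOR 76 and 3.49 for FOR 78. The midpoints of FOR 80 and FOR 84 lie 1.52 kb before and 5.48 kb after that of REV 81, so the values went from the highest of the row to below 0 over fragments that are neighbours. Of the 20 pairs of Calpha with Cmu or the enhancer and J zone, 20 had a fold above 0 and 5 were called, with a median of 2.67. Of the 13 pairs with D, 4 had a fold above 0 and 0 were called, and at an unadjusted p under 0.05 the count was also 0.

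**Figure D3:**
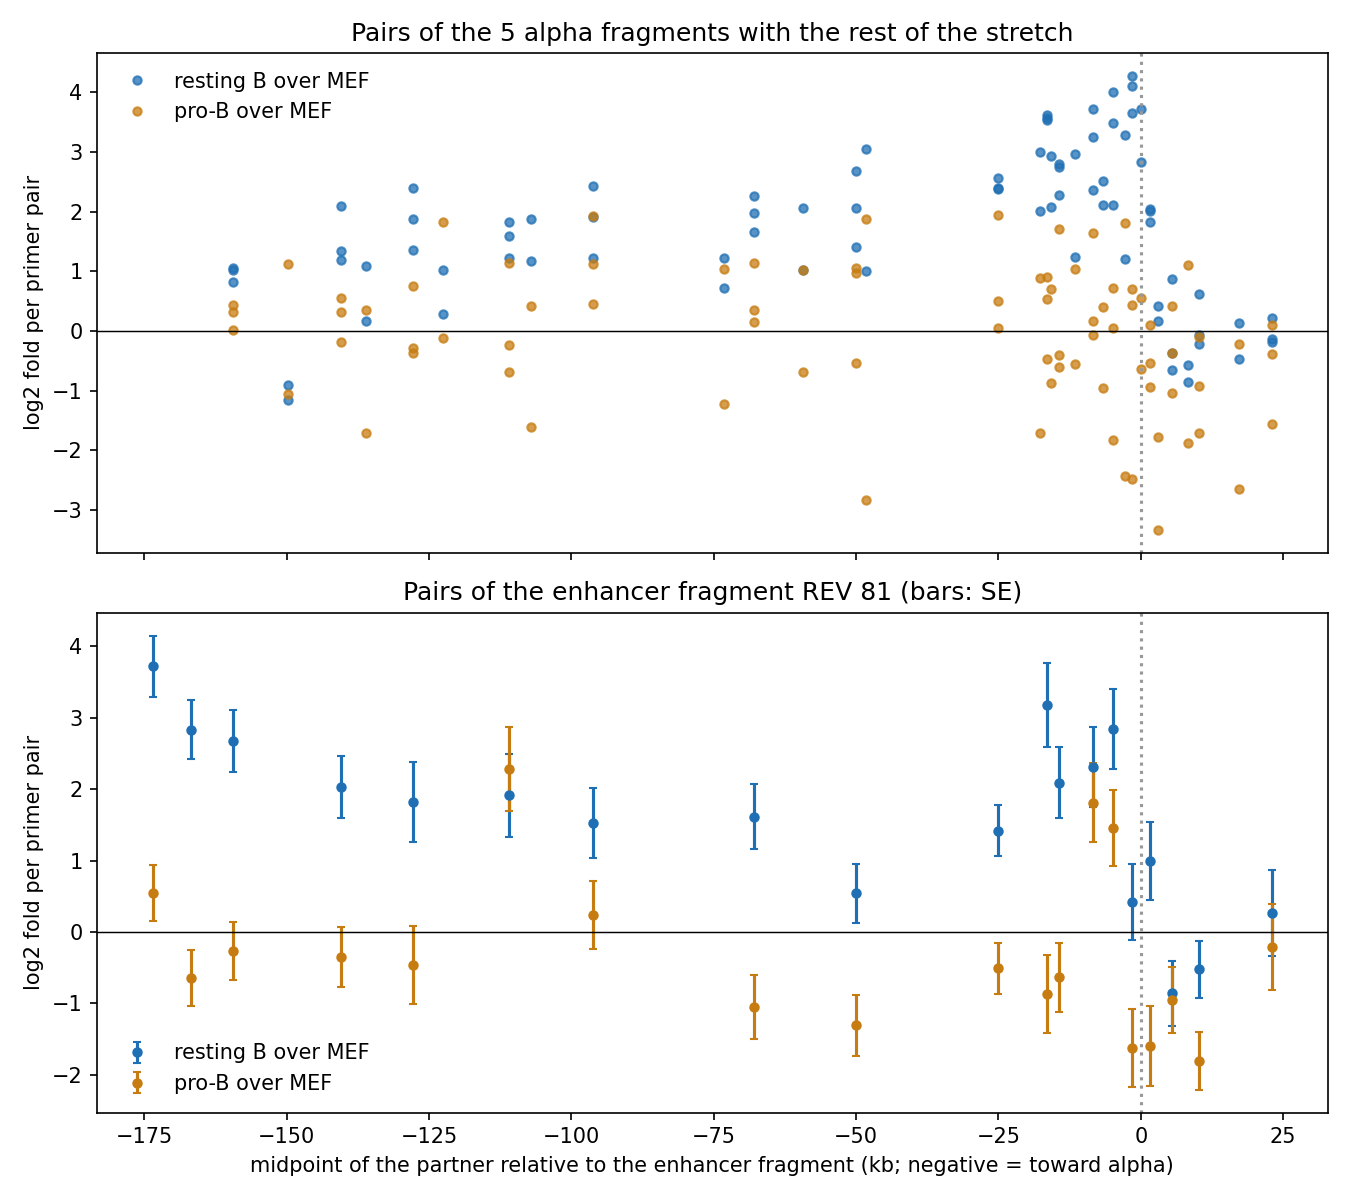
Log2 fold per primer pair against the distance of the partner's midpoint from the enhancer fragment in kb (dotted line at 0), for pairs of the 5 Calpha zone fragments (top) and pairs of the enhancer fragment REV 81 with SE bars (bottom), with resting B over MEF in blue and pro-B over MEF in orange. In the top panel the blue points rise to a median of 4.11 at FOR 80 just left of the line and lie near 0 from 5.48 kb on its right.

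The contrast between the Cmu and D sides was also seen within each library. From the Calpha zone, reads with Cmu and the enhancer and J zone divided by reads with D gave ratios of 0.847 and 0.684 in MEF, 0.718 and 1.20 in pro-B, and 6.79 and 6.03 in resting B. From all constant gene fragments, touching fragments left out, the ratio was 1.55 and 1.32 in MEF, 2.06 and 1.59 in pro-B, and 8.07 and 8.26 in resting B. This ratio does not depend on the scaling between libraries. Resting B did not overlap with the other cell types, with a difference to MEF of 3.07 and 2.51 on the log2 scale, and exact permutation p = 0.333, the smallest that 2 against 2 libraries allow.

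Summed over zones, the same Calpha contacts passed the test under every setting tried. Calpha with Cmu had 2527 and 2725 reads in MEF, 1927 and 4281 in pro-B, and 30999 and 30079 in resting B, over 13 pairs. The log2 fold of resting B over MEF was 3.45 ± 0.33 (edgeR's adjusted p = 0.000406 over 153 zone sums), and it was 3.14 to 3.99 under 16 alternatives, all past the threshold. Calpha with the enhancer and J zone had 2334 and 3457 reads in MEF, 1611 and 2190 in pro-B, and 14498 and 14929 in resting B (2.31 ± 0.20, edgeR's adjusted p = 0.000377). Calpha with Cdelta gave 2.52 ± 0.23 (edgeR's adjusted p = 0.000377). Calpha with D had 5738 and 9044 reads in MEF, 4926 and 5394 in pro-B, and 6704 and 7466 in resting B, which overlap (-0.09 ± 0.21, edgeR's adjusted p = 0.74), and its sign turned under 3 of the 16 alternatives.

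Of the 45 zone sums of the stretch, edgeR called 22 higher and 5 lower in resting B than in MEF, beside 46.4% higher and 10.5% lower over all 153 zone sums of the locus, so these shares were close to the background. Next in size after these 3 Calpha sums were Cgamma2b with Cmu (1.90 ± 0.22) and Cepsilon and Cgamma2a/2c with Cmu (1.88 ± 0.21), both past the threshold in edgeR under every alternative. The D zone has a sum with each of the 9 zones, itself included, among the 45. All 5 sums called lower held it. They were D with Cmu (-1.46 ± 0.31), with Cgamma1 (-1.28 ± 0.27), with Cdelta (-1.05 ± 0.21), with Cepsilon and Cgamma2a/2c (-0.95 ± 0.20) and with Cgamma2b (-0.88 ± 0.26). Cdelta with D, for example, had 13910 and 25077 reads in MEF, 6939 and 12507 in pro-B, and 9844 and 9096 in resting B. The 5 kept their direction in all 16 alternatives but not their calls: edgeR called 23 sums higher and 1 lower with total cis reads as library size and 18 higher and 0 lower with gene desert reads. These scalings moved the median of all Igh pairs in this comparison from -0.02 to 0.21 and 0.45, and the stretch's median stayed 0.77 above it in both, beside 0.74 with TMM.

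**Figure D4:**
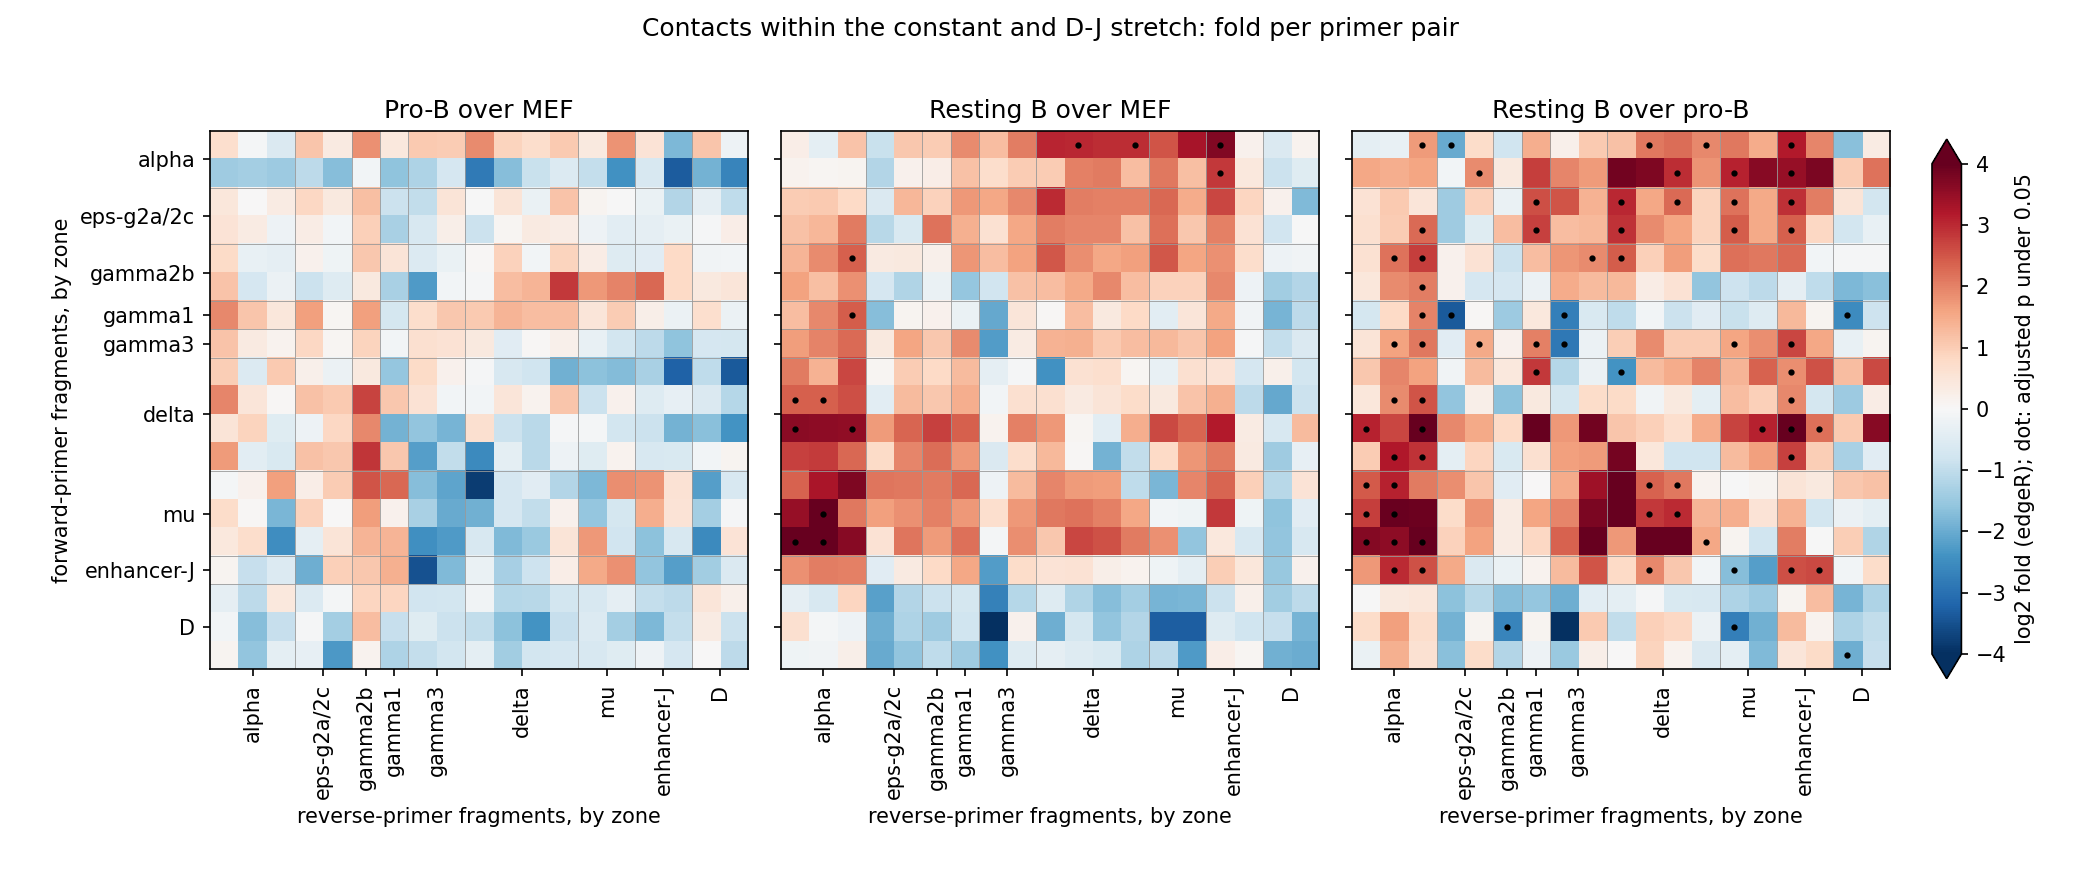
Log2 fold of every one of the 361 primer pairs (colour, cut at -4 and 4) for pro-B over MEF, resting B over MEF and resting B over pro-B, with forward fragments as rows and reverse fragments as columns, both in the order of the chromosome from Calpha to D, and a dot where edgeR's adjusted p was under 0.05. The 13 dots of the middle map lie in the rows and columns of Calpha, and its D rows and columns are mostly blue.

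Between constant genes and the Cmu to D side as a whole, the sum of all reads had a log2 fold of 0.88 ± 0.23 in resting B over MEF (edgeR's adjusted p = 0.0127 over 55 region sums, of which 32.7% were called higher and 16.4% lower). The reads were 109051 and 152475 in MEF, 86065 and 108999 in pro-B, and 252721 and 245674 in resting B, so both resting B libraries lay above the others. This call was lost without MEF replicate 1 (0.98, edgeR's adjusted p = 0.081), without MEF replicate 2 (0.78, 0.11), without resting B replicate 1 (0.93, 0.081) and without resting B replicate 2 (0.83, 0.16). The sum joins parts that moved apart: the 100 pairs of constant genes with Cmu or the enhancer and J zone had a median of 1.65, with 88 above 0, and the 63 pairs with D had a median of -0.79, with 55 below 0. Constant genes with each other had a fold of 0.08 ± 0.45 as a sum, in which touching fragments weigh most, and 1.09 with each pair counted once (limma's adjusted p = 0.0097). The Cmu to D side with itself had 0.31 ± 0.46 as a sum and turned to -0.55 with each pair counted once. Neither sum passed the threshold (edgeR's adjusted p = 0.866 and 0.572).

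Within the Cmu to D side, the sums without touching fragments did show differences between resting B and MEF. Cmu with itself had 1088 and 1247 such reads in MEF, 4369 and 2688 in pro-B, and 4231 and 4587 in resting B (1.84 ± 0.41, edgeR's adjusted p = 0.0103). D with itself had 6574 and 11694 in MEF, 6718 and 8457 in pro-B, and 3631 and 2733 in resting B (-1.54 ± 0.20, edgeR's adjusted p = 0.00152). These sums rest on 2 and 3 pairs, and the removal of touching fragments was chosen after the data had been seen.

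The enhancer fragment REV 81 was higher in resting B with each of the constant gene fragments it could be paired with. Its 12 pairs had log2 folds over MEF from 0.54 to 3.72, with a median of 1.97, and 12 of 12 were above 0, with 2 called. The highest were those with FOR 34 of Calpha (3.72), with FOR 71 of Cdelta (3.18 ± 0.59, not past the threshold, with edgeR's adjusted p of 0.0584) and with FOR 36 of Calpha (2.83). The lowest were those with FOR 58 of Cdelta (0.54), FOR 68 of Cdelta (1.42) and FOR 49 of Cgamma1 (1.53), none of them called. FOR 58 with REV 81 had 477 and 772 reads in MEF, 164 and 312 in pro-B, and 978 and 875 in resting B. With the 3 forward D fragments the folds lay near or below 0 and none passed. FOR 84 with REV 81 had 15826 and 14983 reads in MEF, 8678 and 6226 in pro-B, and 9546 and 8898 in resting B (-0.86, edgeR's adjusted p = 0.336), and the folds with FOR 86 and FOR 91 were -0.52 and 0.26. In pro-B over MEF the 12 constant gene pairs of REV 81 had a median of -0.49 with 3 above 0. The exception in size was FOR 46 of Cgamma2b (2.29), with 2688 and 1281 reads in pro-B, 406 and 518 in MEF, against 1399 and 2199 in resting B.

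Resting B compared with pro-B asks what differs between a splenic B cell with a joined locus and a B lineage cell that cannot recombine. edgeR called 60 of the 361 pairs higher (16.6%) and 10 lower (2.77%), beside 2.74% higher and 5.16% lower over all Igh pairs, and the median was 0.94 beside 0.01. This comparison shares the resting B libraries with the previous comparison, so their calls are not independent. Of the 60 pairs, 30 held a Calpha fragment, 26 a Cdelta fragment, 17 a Cmu fragment and 15 a fragment of the enhancer and J zone. Of all 361 pairs, 89, 136, 89 and 55 do, in that order. The Cdelta and Cmu counts thus lay near their share. No pair with the D zone was among the 60, and 4 of the 10 lower pairs held one, as 89 of the 361 pairs do. Of all Igh pairs, 33% lay higher and 29% lower in both resting B libraries than in both pro-B libraries. When any MEF or any resting B library was left out, the calls were lost over the whole locus as in the stretch. The median log2 fold of the stretch was 0.94 without MEF replicate 1 and also without MEF replicate 2. It was 0.90 without resting B replicate 1 and 0.87 without resting B replicate 2. Without pro-B replicate 1 it was 0.90 and without replicate 2 0.99, and more pairs passed in the stretch and over the locus. In both the share of lower pairs was below that of the locus.

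The same Calpha to Cmu and enhancer pairs led the higher side. FOR 80 with REV 37 had 23 and 11 reads in pro-B, 109 and 98 in MEF, against 1815 and 1054 in resting B (log2 fold of resting B over pro-B 6.14 ± 0.76, edgeR's adjusted p = 0.0195). FOR 78 with REV 35 gave 3.95 ± 0.38 (edgeR's adjusted p = 0.0189), FOR 36 with REV 81 gave 3.48, FOR 80 with REV 33 gave 3.68, FOR 34 with REV 81 gave 3.17, FOR 71 with REV 37 gave 4.01 and FOR 71 with REV 33 gave 3.09. Outside Calpha, FOR 78 of Cmu with REV 70 of Cdelta had 796 and 1261 reads in pro-B, 1362 and 2101 in MEF, against 8824 and 7125 in resting B (2.82 ± 0.36, edgeR's adjusted p = 0.0197), and FOR 78 with REV 73 gave 3.00 ± 0.39. FOR 40 with REV 48, between the Cepsilon and Cgamma2a/2c zone and Cgamma1, had 518 and 806 reads in pro-B, 1252 and 2318 in MEF, against 5505 and 4172 in resting B (2.73 ± 0.37, edgeR's adjusted p = 0.0214). In reads, MEF lay above pro-B or overlapped with it in these pairs, and resting B was above both.

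On the lower side, FOR 49 of Cgamma1 had 3 of the 10 pairs, and it was in 19 of all 361. With REV 39 it had 6036 and 4104 reads in pro-B, 1845 and 1582 in MEF, against 662 and 502 in resting B (-3.35 ± 0.53, edgeR's adjusted p = 0.0245). With REV 85 of D it had 2338 and 1470 in pro-B, 1244 and 1362 in MEF, against 370 and 398 in resting B (-2.53 ± 0.50, edgeR's adjusted p = 0.035), and its pair with REV 53 of Cgamma3 had -2.73 ± 0.62. FOR 86 of D fell with REV 44 of Cgamma2b (-2.63 ± 0.47) and with REV 77 of Cmu (-2.75 ± 0.62), and FOR 91 with REV 85 fell within D (-1.95 ± 0.35). The others were FOR 34 with REV 39 (-2.02), FOR 58 with REV 61 (-2.38), FOR 54 with REV 53 (-2.87) and FOR 82 with REV 77 (-1.70), with edgeR's adjusted p of 0.0413 to 0.0474. FOR 58 with REV 61, which lie 1.7 kb apart, had 45976 and 31286 reads in pro-B, 45920 and 38319 in MEF, against 9151 and 8078 in resting B.

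As zone sums, edgeR called 16 of 45 higher and 4 lower in resting B than in pro-B, beside 35.3% and 14.4% over the 153 sums, and 11 higher and 1 lower with gene desert reads as library size. The largest were Calpha with Cmu (3.20 ± 0.33, edgeR's adjusted p = 0.00142) and Calpha with the enhancer and J zone (2.81 ± 0.20, edgeR's adjusted p = 0.000544), both past the threshold under all 16 alternatives, also without pro-B replicate 2. Cgamma3 with Cmu (2.38 ± 0.27) and Cgamma3 with the enhancer and J zone (2.30 ± 0.27) also passed under all 16. Cgamma3 with Cmu had 994 and 907 reads in pro-B, 1648 and 2447 in MEF, against 5530 and 5718 in resting B. The enhancer and J zone with itself, next in size after the Calpha sums with Cmu and with this zone, gave 2.60 ± 0.42 from 2 pairs of touching fragments. The lower sums were Cgamma1 with D and Cgamma2b with D (both -1.55 ± 0.27), D with itself (-1.38 ± 0.38) and Cgamma2b with Cgamma1 (-1.08 ± 0.34), the last of which rested on 1 pair: without the pair with the most reads it was 0.02.

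The sum of constant genes with the Cmu to D side was 1.20 ± 0.23 higher on the log2 scale in resting B than in pro-B (edgeR's adjusted p = 0.00679, beside 20% of the 55 region sums called higher and 21.8% lower). The call was lost without resting B replicate 2 (1.15, edgeR's adjusted p = 0.062). Over its 100 pairs with Cmu or the enhancer and J zone the median was 1.89, with 30 called higher and 0 lower, and over its 63 pairs with D it was -0.20, with 0 called higher and 2 lower. The enhancer fragment REV 81 had a median of 2.52 over its 12 constant gene pairs, with 11 above 0 and 9 called. The Cmu to D side with itself had 1.12 ± 0.47 (edgeR's adjusted p = 0.0656) and constant genes with each other 0.01 ± 0.45.

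Pro-B compared with MEF asks what the B lineage locus looks like before recombination. At the level of single pairs edgeR called 0 of 361 higher and 0 lower, and the background over all Igh pairs was 0% and 0% as well. At an unadjusted p under 0.05 there were 48 higher and 40 lower, beside 4.99% and 4.17% of all Igh pairs. DESeq2's Wald test called 10 higher and 7 lower, beside 1.34% and 1.13%. Leaving out pro-B replicate 1, edgeR called 44 higher and 68 lower, beside 9.36% and 22.4%, so the share of lower pairs was below that of the locus. The fit that left out pro-B replicate 2 instead called 18 higher and 5 lower, beside 1.25% and 0.544%. The median was -0.20 beside 0.03 over all Igh pairs. Of the 5 pairs with a fold above 0 and the smallest p, 3 joined Cgamma2b to Cdelta, as 12 of the 361 pairs do. The others joined Calpha to Cgamma1 and to Cdelta. FOR 74 with REV 44 had 395 and 601 reads in MEF, 2260 and 4655 in pro-B, and 2827 and 2020 in resting B (log2 fold 2.86 ± 0.41, edgeR's adjusted p = 0.235). FOR 68 with REV 44 had 2599 and 2798 reads in MEF, 11684 and 23307 in pro-B, and 6646 and 5458 in resting B (2.71 ± 0.42). The log2 fold was 2.82 for FOR 46 with REV 75, 1.92 for FOR 49 with REV 33 and 1.95 for FOR 68 with REV 33.

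Of the 5 with a fold below 0 and the smallest p, none past the threshold, 4 had an end in the enhancer and J zone or D. Of the 361 pairs, 55 hold the former and 89 the latter, with 8 holding both. FOR 82 with REV 83, touching fragments of the J segments, had 291109 and 336767 reads in MEF, 63545 and 64791 in pro-B, and 460250 and 449724 in resting B (-2.20 ± 0.47, edgeR's adjusted p = 0.355). FOR 80 with REV 85 gave -2.55, FOR 86 with REV 81 gave -1.80, FOR 86 with REV 70 gave -1.65 and FOR 36 with REV 41 gave -1.71. Both pro-B libraries lay below both MEF libraries in these pairs, as they did in 22.8% of all Igh pairs, and both pro-B libraries lay above both MEF libraries in 19.3% of them.

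As zone sums, edgeR called 7 of 45 higher and 5 lower in pro-B than in MEF. Over the 153 sums 16.3% were higher, a share close to that of the stretch, and 4.58% lower. Cgamma2b with Cdelta had 6800 and 9617 reads in MEF, 20730 and 42920 in pro-B, and 25626 and 21714 in resting B (log2 fold 2.01 ± 0.26, edgeR's adjusted p = 0.00456). Cgamma2b with Cmu had 1651 and 2271 in MEF, 5084 and 5743 in pro-B, and 8664 and 6614 in resting B (1.57 ± 0.22, edgeR's adjusted p = 0.00539). Calpha with Cgamma1 had 8834 and 14200 in MEF, 23963 and 35468 in pro-B, and 39708 and 33036 in resting B (1.47 ± 0.19, edgeR's adjusted p = 0.00456). Cgamma1 with Cdelta (1.18 ± 0.26) and Calpha with Cdelta (0.82 ± 0.22) were also called higher. Cgamma2b with Cdelta kept its call in 14 of 16 alternatives and Calpha with Cdelta in 5, and Calpha with Cgamma1 had 0.65 without its pair with the most reads, past the threshold no longer (edgeR's adjusted p = 0.052). In the first of these sums, as in Calpha with Cgamma1, both pro-B libraries lay above both MEF libraries. After scaling, Cgamma2b with Cdelta was at 1183 and 1823 RPM in pro-B, above the 1074 and 1005 of resting B. Calpha with Cgamma1 was at 1368 and 1507 RPM in pro-B, below the 1664 and 1529 of resting B. Neither sum was called in resting B over pro-B (edgeR's adjusted p = 0.11 and 0.52).

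The Calpha contacts with the enhancer side, in contrast, were not past the threshold in pro-B over MEF. Calpha with Cmu had 0.24 ± 0.30 (edgeR's adjusted p = 0.65), Calpha with the enhancer and J zone -0.51 ± 0.19 (0.11) and Calpha with D -0.38 ± 0.21 (0.26). The sums called lower were the enhancer and J zone with itself (-1.75 ± 0.41), Cgamma3 with the enhancer and J zone (-1.38 ± 0.26), Cmu with itself (-1.36 ± 0.37), Cgamma3 with Cmu (-0.96 ± 0.26) and Cdelta with D (-0.90 ± 0.21). Of these 12 calls 3 were kept with total cis reads as library size and 2 with gene desert reads. The Cmu sum turned to 1.74 when touching fragments were left out. Leaving out MEF replicate 1 ended all 12 calls, and the fit without pro-B replicate 2 made 17 higher and 6 lower calls, beside 26.1% and 17.6% of all sums. That without pro-B replicate 1 made 10 and 10, beside 26.1% and 13.1%. With total cis reads as library size edgeR called 1 higher and 4 lower, and with gene desert reads 1 higher and 2 lower. The 3 region sums gave no call in this comparison, with log2 folds of 0.07 ± 0.45 for constant genes with each other, -0.32 ± 0.22 for constant genes with the Cmu to D side and -0.81 ± 0.46 for the latter with itself, beside 9.09% of the 55 region sums called higher and 0% lower.

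Each fragment's reads with all its partners in the stretch are mostly reads with the fragments that touch it. For resting B over MEF, edgeR called 0 of 38 higher and 2 lower, both of them D fragments (REV 90, -1.14 ± 0.24, and FOR 91, -0.89 ± 0.23), beside 21.8% higher and 3.56% lower over the 225 Igh fragments. The comparison of resting B with pro-B had 7 higher and 4 lower, beside 40.4% and 4.44%, and in pro-B over MEF 0 and 0, beside 0.444% and 0%. Over partners more than 10 kb away, edgeR called 24 of 38 higher and 2 lower in resting B over MEF. Of all Igh fragments measured against the same partners, 36.9% were called higher and 4% lower. The largest of the 38 were FOR 71 of Cdelta (2.51), FOR 80 of Cmu (2.47), REV 37 of Calpha (2.23) and FOR 78 of Cmu (2.00). Those called lower were FOR 84 (-1.02) and REV 85 (-1.19), the D fragments closest to J, and the other 3 D fragments had -0.51 to -0.65 without passing. The counts for resting B over pro-B were 24 higher and 5 lower, beside 49.8% and 4.89%, and in pro-B over MEF 3 higher and 0 lower, beside 2.22% and 0%. The 3 were FOR 34 of Calpha (1.17), REV 44 of Cgamma2b (1.27) and FOR 68 of Cdelta (1.02).

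Junction reads between a fragment and the gene desert on chromosome 5 were used as a measure of the fragment's recovery and copies, with the library's total of such reads (TMM-scaled) as its size. In these bulk libraries, more cells with a contact and more contacts per cell cannot be told apart, and a D or J fragment deleted by V(D)J joining would be missing from splenic B cells. The D fragments had desert reads in resting B over MEF with log2 folds from -0.18 to 0.31 (5 fragments, 0 called by edgeR), and the Calpha fragments had 0.04 to 1.04 with 0 called. Of the 38 fragments 0 were called in resting B over MEF and 0 in pro-B over MEF, beside 0.446% and 0% of the 224 Igh fragments tested. Against pro-B, REV 35 of Calpha (1.72 ± 0.50, edgeR's adjusted p = 0.0382) and REV 55 of Cgamma3 (2.38 ± 0.45, edgeR's adjusted p = 0.00531) were called, beside 8.93%. REV 35 had 153 and 408 desert reads in pro-B, 300 and 522 in MEF, against 1514 and 2468 in resting B, so its desert reads moved with its Calpha contacts against pro-B, and their part in those contacts was not tested. Against MEF the desert fold of REV 35 was 1.04 ± 0.48 and not past the threshold, beside 4.01 for its pair with FOR 78, and that of REV 33 was 0.49, beside 4.11 for its pair with FOR 80. REV 83 of J had the most desert reads of the 38 fragments, 10488 and 7484 in MEF, 2423 and 23288 in pro-B, and 37974 and 40665 in resting B. These reads are not scaled. With scaling, its log2 fold in resting B was 0.88 ± 0.43 over MEF (edgeR's adjusted p = 0.52). Over pro-B it was 1.30 ± 0.44 (edgeR's adjusted p = 0.067), so neither passed the threshold.

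Set against a model of distance and primer efficiency fitted to each library, 30 of the 361 pairs (8.31%) exceeded expectation in both resting B libraries, by a standardised residual of at least 2. The background was 1.12% of the 12656 Igh pairs. In pro-B 3 pairs did (0.831%, background 0.466%), all of touching fragments, and in MEF 0 (background 0.253%). Of the 30, 22 were not touching, and all 22 held a Calpha fragment, with the other end in Cdelta in 10, in Cmu in 6, in Cgamma1 in 3, in Cgamma2b in 2 and in Cgamma3 in 1. Of the 361 pairs, 89 hold a Calpha fragment. The pair FOR 78 with REV 33 had 7882 and 6819 reads in resting B where the model expected 810.3 in replicate 1. By the median over the pairs of 2 zones, Calpha with Cmu lay 3.06 and 3.95 above expectation on the log2 scale in resting B, 0.72 and 1.88 in pro-B, and 1.80 and 0.78 in MEF. Calpha with the enhancer and J zone lay 0.23 and 0.77 above it in resting B, 0.48 and 0.47 in pro-B, and 0.94 and 0.38 in MEF, so against expectation resting B overlapped with the other cell types. The model takes each primer's overall reads into account. No test was run on these residuals.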

How the data were processed

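The deposited files give whole-number read counts per forward-reverse primer pair, and per the file headers each also states the library's read total, valid pairs and read length (42 bases). Per the submitters' processing notes the authors used Novoalign and mm9, with versions not given in the sources used here. A second deposited column holds 1 for every pair and was not used (unit other). Pairs that a file does not list were taken as 0. Fragments have the coordinates that their primers' names state.

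Counts of all Igh and gene desert cis pairs that reached 10 reads in 2 or more libraries (11940 and 220 pairs) were fitted with edgeR 4.0.16 (TMM, quasi-likelihood, all 6 libraries, R 4.3.3), adjusted by Benjamini-Hochberg over Igh pairs at a threshold of 0.05. Reads summed over 55 pairs of regions, 153 pairs of zones and 225 fragments were fitted with the same scaling. Mean log2 values (pseudocount 0.5) were fitted with limma 3.58.1, and DESeq2 1.42.0 was an alternative. Expected reads came from fitting, in each library, quasi-Poisson regression on primer effects and a spline (4 df) of log separation. Junctions carry no molecular identifiers, so counts cover counting error only, and replicates were further apart than sampling noise (chi-square per df 149 to 456). The scripts were tested on simulated data.

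Named pairs were up to 10 per direction in order of p among called pairs with separated groups, filled to 5 with pairs not past the threshold. The members, zones and lists were chosen with earlier results of these data known. Zone edges are approximate, and no mm9 annotation was used. TMM factors of the libraries were 0.728 to 1.22. Alternatives were 3 other scalings, filters, tests, a distance correction, separation limits and leaving out each library.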

Additional observations from a re-analysis of the deposited data

How the results depend on the processing

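Directions held more often than calls. The log2 folds of all 45 named pairs kept their sign in every alternative run. Of the called zone sums, Calpha with Cmu and with the enhancer and J zone kept direction and call in both resting B comparisons under all 16 alternatives, and 4 others turned. The first were Cmu with itself in pro-B over MEF without touching fragments (1.74, an alternative chosen after seeing the data) and Cgamma2b with Cgamma1 in resting B over pro-B without the pair with the most reads (0.021). With each pair counted once, the other ones turned: Calpha with Cgamma3 in pro-B over MEF (0.80) to -0.10 and Cgamma3 with the enhancer and J zone in resting B over MEF (0.92) to -0.07. The uncalled sums of Calpha with D (resting B over MEF and over pro-B) and of Calpha with Cmu (pro-B over MEF) also changed sign under some. The cause of the changes below was not tested. Fewer libraries leave fewer degrees of freedom, but calls rose in some of those fits and fell in others. Numbers are calls in the stretch, higher and lower together, unless named as log2 folds. Calls over all Igh pairs or sums are given as higher and lower counts, in that order.

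Pairs called in resting B over MEF (13) became 26 with total cis reads as library size, 28 with gene desert reads, 20 with no filter, 22 with at least 50 reads, 4 with the distance correction, 0 with only pairs over 50 kb, 202 with only the 4 libraries compared and 129 with DESeq2's Wald test. Over all Igh pairs, 44 higher and 46 lower became 79 and 89 with total cis reads and 86 and 64 with gene desert reads. No filter gave 76 and 77, at least 50 reads 87 and 86, and the distance correction 14 and 32. There were 0 and 0 over 50 kb, 1656 and 1621 with 4 libraries and 746 and 882 with DESeq2. Pairs of the stretch called in resting B over pro-B (70) became 35 with the distance correction, 38 over 50 kb, 0 with 4 libraries and 146 with DESeq2. Over all Igh pairs, 327 and 616 became 141 and 722, 211 and 404, 0 and 0, and 1303 and 1601 in that order. In pro-B over MEF, 0 and 0 over all Igh pairs became 3 and 1 with total cis reads. They were 8 and 2 with gene desert reads and 160 and 135 with DESeq2. The pairs called in the stretch (0) became 1, 2 and 17 in that order. Leaving out 1 library at a time gave 0 to 201, 0 to 177 and 0 to 112.

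Zone sums in pro-B over MEF (12) became 5 with total cis reads, 3 with gene desert reads, 4 with 4 libraries, 6 with the distance correction and 4 with each pair counted once. Over all 153 sums, 25 and 7 became 7 and 4, 5 and 2, and 10 and 1 in that order. The distance correction gave 26 and 1 and each pair counted once 1 and 11. In resting B over MEF, 71 and 16 of all 153 sums became 33 and 6 with the distance correction, and those of the stretch (27) became 16. In resting B over pro-B, 54 and 22 became 27 and 7 with gene desert reads and 18 and 19 with the distance correction. The zone sums called in the stretch (20) became 12 and 13 in that order. Leaving out 1 library gave 0 to 23, 14 to 32 and 11 to 29.

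Fragment sums in pro-B over MEF (0) became 15 with total cis reads, 5 with gene desert reads, 3 with the distance correction, 1 without the pair with the most reads and 3 over 10 kb. Over all 225 fragments, 1 and 0 became 8 and 10, 3 and 4, and 4 and 2 in that order. Without the pair with the most reads they were 3 and 2, and over 10 kb 5 and 0. In resting B over MEF (2) those of the stretch became 18, 7, 11, 16 and 26 under the same settings in order. They became 5 with DESeq2 size factors, 12 with 4 libraries, 14 with each pair counted once and 22 without touching fragments. Over all 225, 49 and 8 became 71 and 4, 32 and 0, 34 and 3, 83 and 12, and 83 and 9. Then came 66 and 7, 113 and 22, 44 and 5, and 74 and 12. In resting B over pro-B, 91 and 10 of all 225 became 76 and 6 with total cis reads. Without the pair with the most reads they were 113 and 9, and over 10 kb 112 and 11. Each pair counted once gave 115 and 2, and leaving out touching fragments 102 and 11. The fragment sums called in the stretch (11) became 19, 17, 29, 23 and 21 in that order. Leaving out 1 library gave 0 to 7, 0 to 12 and 2 to 15.

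Region sums are log2 folds. Constant genes with each other passed in resting B over MEF with total cis reads (0.38), gene desert reads (0.63), over 10 kb (0.93) and each pair counted once (1.09), and in resting B over pro-B with each pair counted once (1.05). Constant genes with the Cmu to D side no longer passed in resting B over MEF with total cis reads (1.12), gene desert reads (1.37), the distance correction (1.11) and each pair counted once (0.58), and in resting B over pro-B with gene desert reads (1.48) and the distance correction (1.07). The Cmu to D side with itself passed in pro-B over MEF with total cis reads (-0.80), in resting B over MEF with total cis reads (0.63), gene desert reads (0.88) and the distance correction (1.5), and in resting B over pro-B with total cis reads (1.42), gene desert reads (1.45), 4 libraries (1.12) and the distance correction (2.01). Leaving out 1 library, constant genes with each other ranged over -0.21 to 0.40 (pro-B over MEF), -0.20 to 0.41 (resting B over MEF) and -0.14 to 0.18 (resting B over pro-B), constant genes with the Cmu to D side over -0.42 to -0.22, 0.78 to 0.98 and 1.15 to 1.25, and the Cmu to D side with itself over -1.13 to -0.40, -0.0036 to 0.72 and 0.92 to 1.36.

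With the replicate number as a block, 0 pairs were called in resting B over MEF and 25 in resting B over pro-B, and fragment sums in resting B over MEF became 6. Over all Igh pairs these fits called 1 and 6, and 67 and 204, and over the 225 fragments 60 and 9. The replicate numbers do not pair the libraries: deviations of same-numbered libraries correlated at -0.026, 0.087 and 0.013 between cell types.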
